A study of Mus musculus with 8 samples.

Results

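The transcripts of the mouse mitochondrial genome were described in whole embryos at embryonic day 9.5 (E9.5). They were taken as every row of the deposited table whose symbol starts with mt-, which gave 37 of 41709 gene symbols: 13 mRNA genes, 2 ribosomal RNA (rRNA) genes and 22 transfer RNA (tRNA) genes. Mutant embryos were homozygous for K399A (SmoK399A/K399A), an amino acid substitution in Smoothened, the membrane protein that passes the Hedgehog signal on inside the cell. Their wild-type (WT) counterparts were Smo+/+, and 4 embryos of each genotype were sequenced one by one. Parents were heterozygous for the same allele. Embryos came from several litters that are not labelled per embryo, so the part of litter cannot be told apart from that of genotype. The comparison asks how the transcriptome of the whole embryo differs when Smoothened carries the substitution.

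Mitochondrial DNA is a small circle that is transcribed from both strands into long precursors by a dedicated RNA polymerase. Most mRNAs and both rRNAs are flanked by tRNAs, which are cut out and thereby free the mRNAs and rRNAs, and the mRNAs and rRNAs receive short poly(A) tails. The mRNAs encode core membrane subunits of respiratory complexes I, III, IV and V, which are assembled with many nuclear-encoded subunits, while complex II is wholly nuclear-encoded. In the heart and in other tissues that burn much oxygen these transcripts are among the most abundant in the cell.

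In the annotation (GENCODE M21 on GRCm38), 12 mRNA genes, both rRNA genes and 14 tRNA genes read in the plus direction, the products of heavy-strand transcription. The remaining mRNA gene, mt-Nd6 (chrM:13552-14070), and 8 tRNA genes lie on the minus strand. Each mRNA gene is a single exon. Neighbouring genes are packed so closely that some share bases, which matters here because reads there cannot be given to 1 gene alone. The following ends were chosen because the ratios and the strand comparison given further on turn on them; each is printed 5′ to 3′ in the gene's own sense, with the bases shared with the neighbouring gene in capitals.
mt-Nd5: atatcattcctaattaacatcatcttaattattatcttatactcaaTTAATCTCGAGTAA
mt-Nd6: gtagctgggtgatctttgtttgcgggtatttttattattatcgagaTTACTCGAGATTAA
mt-Atp8: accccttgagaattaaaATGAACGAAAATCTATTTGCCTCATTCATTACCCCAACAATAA
mt-Nd4l: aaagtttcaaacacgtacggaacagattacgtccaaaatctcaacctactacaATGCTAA
The end of mt-Nd5 (chrM:13506-13565) and the end of mt-Nd6 (chrM:13552-13611, minus strand) face each other and overlap by 14 bases. The end of mt-Atp8 (chrM:7910-7969) holds the first 43 bases of mt-Atp6, and that of mt-Nd4l (chrM:10114-10173) the first 7 bases of mt-Nd4, and each of these pairs is known to stay together on 1 mature mRNA. In 3 of the 13 mRNA genes the stop codon is incomplete in the DNA and is known to be finished by the poly(A) tail. Their last 24 bases, with the remaining base of the stop codon in capitals, are those of mt-Nd4 (chrM:11521-11544), mt-Cytb (chrM:15265-15288) and mt-Co3 (chrM:9367-9390).
mt-Nd4: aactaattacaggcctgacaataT
mt-Cytb: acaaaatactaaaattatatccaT
mt-Co3: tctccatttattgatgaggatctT
The sense sequence of mt-Nd6 also stood apart in its bases: 28.1% were G and 5.97% C, against 5.88% to 16.1% G and 22.1% to 30.0% C in the 12 other mRNA genes.

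The deposited values are TPM, reads divided by gene length and scaled to 1000000 per library, so levels of different genes can be set roughly side by side. The steps between values gave back whole reads for each of the 37 genes with the GENCODE M21 length. Reads summed over all symbols with such a length, in units of 1000000 reads, came to 59.1 to 60.4 in mutants and 59.1 to 59.7 in WT. These sums hold reads given to matched genes, not all reads of a library. The share of these reads from mitochondrial genes was 1.70, 1.84, 1.69 and 1.78% in mutants 1 to 4, against 1.54, 1.46, 1.29 and 1.41% in WT 1 to 4. The share of TPM from the 13 mRNAs alone was 6.08, 6.58, 5.84 and 6.33% in mutants 1 to 4, against 5.39, 5.27, 4.65 and 4.98% in WT 1 to 4. In neither share did the groups overlap. Their mean share was 6.21 ± 0.321% in mutants and 5.07 ± 0.327% in WT (SD, n = 4 each), a difference of 1.14 percentage points. Mutant 2 was the highest and WT 3 the lowest of the 8 embryos. The libraries of mutants 3 and 4 stood apart from the other 6 in the lowest levels of nuclear non-coding RNAs, given with mt-Nd6 further on; values with mutants 1 and 2 only, a setting chosen after seeing the data, are given where they differ much. Mutants 1 and 2 in turn had the highest sums of yolk sac endoderm markers and of trophoblast and decidua markers, given with the other tissues further on. In whole embryos, fewer cells of a type and less RNA per cell cannot be told apart. All 12 markers of E9.5 embryonic tissues that were listed, such as Sox2 of neural progenitors and Meox1 of somites, reached the level needed for testing. None was called, nor was any other gene tested. Of the 12, 3 were higher (37.7% of all genes) and 9 lower on average in mutants, with a median log2 fold change of -0.22. For 1 of them every mutant lay above every WT embryo (3.63% of all genes).

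Levels followed the same order in both genotypes. From the highest mean down, this order was mt-Co2, mt-Co1, mt-Co3, mt-Atp6, mt-Nd1, mt-Atp8, mt-Cytb, mt-Nd3, mt-Nd4, mt-Nd2, mt-Nd4l, mt-Nd5, mt-Rnr1, mt-Rnr2 and mt-Nd6. The scale ran from 10398 TPM for mt-Co2 to 18.9 TPM for mt-Nd6 in mutants, and from 8304 to 34.3 TPM in WT. Neighbours such as mt-Co3 and mt-Atp6 lay within their spread between embryos, at 8234 ± 189 TPM in mutants and 7251 ± 493 TPM in WT (SD, n = 4 each) for mt-Co3 and 8033 ± 260.0 TPM in mutants and 6956 ± 309 TPM in WT (SD, n = 4 each) for mt-Atp6. The 4 highest mRNAs encode subunits of complexes IV and V, and all 7 mRNAs of complex I subunits lay below them.

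**Figure D1:**
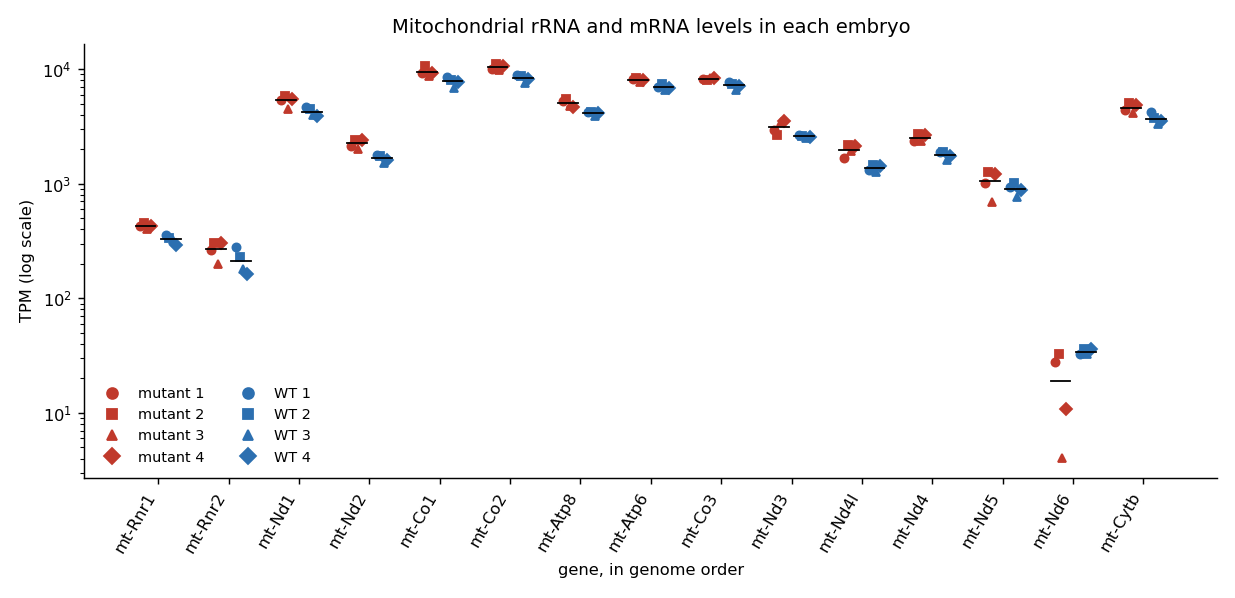
TPM of the 2 rRNAs and 13 mRNAs in each embryo on a log axis, genes in genome order, mutants in red left of WT in blue, black lines group means. The mRNAs other than mt-Nd6 lie between 688 and 11156 TPM, and mt-Nd6 is at 4.06 and 10.8 TPM in mutants 3 and 4.

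Of all 13596 genes tested, 37.7% were higher on average in mutants, and the median log2 fold change was -0.04. The 12 mRNAs of heavy-strand transcription were all higher on average in mutants, by log2 fold changes of 0.19 to 0.52 and a median of 0.31. None passed the test: limma called 0 of the 15 mitochondrial genes that reached the level for testing, and 0 of 13596 genes (0%), at an adjusted p under 0.05, with adjusted p of 0.203 to 0.620 for the 15. Of the 12 mRNAs, 11 (91.7%) had an unadjusted p under 0.05 in the direction higher in mutants, a mark reached by 754 of 13596 genes (5.55%). For 8 of the 12 (66.7%) every mutant lay above every WT embryo, as for 494 of all genes (3.63%). Over the 15 genes, 9 stood at the smallest exact permutation p that 4 embryos against 4 allow, 0.0286 (two-sided). Levels of these genes share 1 set of embryos and 1 set of precursors, so their counts are not independent of each other. With mutants 1 and 2 only, the median over the 12 mRNAs was 0.36, and the 13 mRNAs' share of TPM was 1.26 percentage points above WT. The summed level of heart muscle markers was also higher in every mutant than in any WT embryo, at 2219 to 4544 TPM in mutants and 1505 to 2186 TPM in WT, and its part here was not tested.

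**Figure D2:**
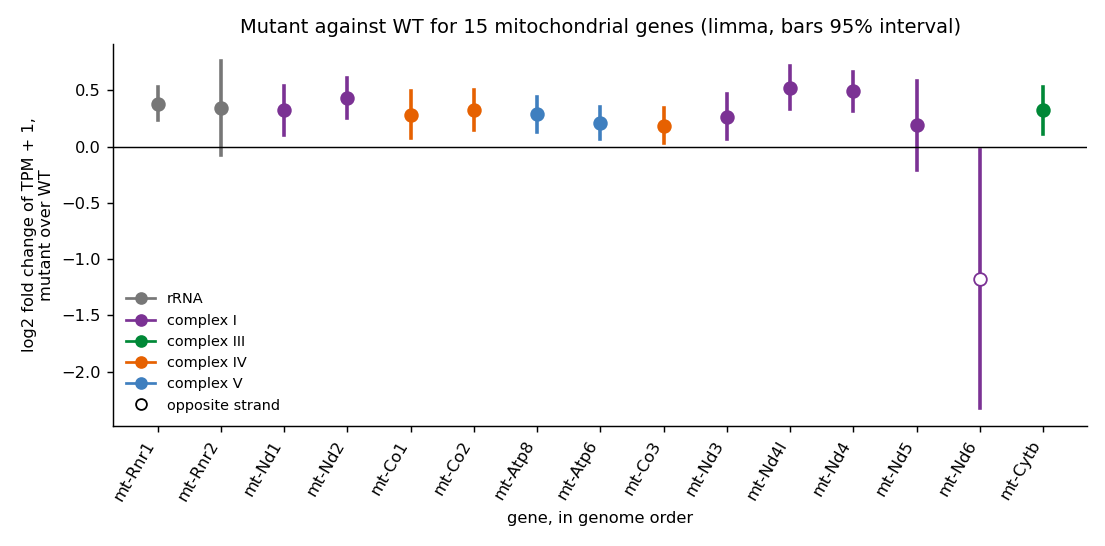
Log2 fold change of TPM + 1, mutant over WT, for 15 mitochondrial genes in genome order; points are limma estimates from 4 embryos a group, bars 95% confidence intervals, the open point the gene on the opposite strand. The 14 genes of heavy-strand transcription lie between 0.19 and 0.52, and mt-Nd6 lies at -1.18 with an interval from -2.33 to -0.03.

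Complex I (NADH dehydrogenase) passes electrons from NADH to ubiquinone and pumps protons; 7 of its subunits are encoded here. mt-Nd4 (chrM:10167-11544), a membrane-arm subunit of the proton pump, was at 2341, 2697, 2341 and 2641 TPM in mutants 1 to 4, against 1891, 1893, 1595 and 1758 TPM in WT 1 to 4. The groups did not overlap, with a log2 fold change of 0.49 ± 0.08 (SE; limma adjusted p = 0.203). mt-Nd4l (chrM:9877-10173), a small subunit encoded on the same mature mRNA, was at 1683, 2161, 1913 and 2149 TPM in mutants 1 to 4, against 1320.1, 1459.9, 1274 and 1420.5 TPM in WT 1 to 4. It had the highest fold change of the 15 genes, 0.52 ± 0.09 (SE; limma adjusted p = 0.203), and again no overlap. mt-Nd2 (chrM:3914-4951), another pump subunit, was at 2113, 2424, 2027 and 2426 TPM in mutants 1 to 4, against 1776, 1753, 1523 and 1618 TPM in WT 1 to 4, also without overlap and with a log2 fold change of 0.43 ± 0.08 (SE; limma adjusted p = 0.228). The next genes overlapped between genotypes. mt-Nd1 (chrM:2751-3707), a subunit near the ubiquinone site, was at 5430.4, 5886, 4510.1 and 5513 TPM in mutants 1 to 4, against 4689, 4472, 3984 and 3890.4 TPM in WT 1 to 4, so that mutant 3 lay below WT 1, with a log2 fold change of 0.32 ± 0.10 (SE; limma adjusted p = 0.289). mt-Nd3 (chrM:9459-9806), a small subunit near the junction with the matrix arm, was at 2935, 2645, 3425 and 3519 TPM in mutants 1 to 4, against 2649.6, 2617, 2506 and 2566 TPM in WT 1 to 4. There mutants 3 and 4 were the highest of the 8 embryos and mutant 2 lay just below WT 1, with a log2 fold change of 0.27 ± 0.09 (SE; limma adjusted p = 0.310), or 0.11 with mutants 1 and 2 only. mt-Nd5 (chrM:11742-13565), the outermost pump subunit of the arm, was at 1021, 1255, 688 and 1224 TPM in mutants 1 to 4, against 933, 1011, 767 and 884 TPM in WT 1 to 4. Mutant 3 was the lowest of all 8 embryos for mt-Nd5, the log2 fold change stood at 0.19 ± 0.18 (SE; limma adjusted p = 0.620), and it was 0.38 without mutant 3, 0.09 without mutant 2, 0.10 without mutant 4, 0.11 without WT 3 and 0.34 with mutants 1 and 2 only. The summed TPM of the 6 genes was 16242 ± 1224 TPM in mutants and 12563 ± 798 TPM in WT (SD, n = 4 each), 1.29 times the WT level.

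Complex III is represented by mt-Cytb (chrM:14145-15288) alone, the cytochrome b that hands electrons on from ubiquinol. It was at 4443, 5075, 4113 and 4821 TPM in mutants 1 to 4, against 4201, 3728, 3288 and 3550.3 TPM in WT 1 to 4, and WT 1 lay above mutant 3. The log2 fold change of mt-Cytb came to 0.32 ± 0.09 (SE; limma adjusted p = 0.281). Complex IV, cytochrome c oxidase, reduces oxygen to water, and its catalytic core is encoded by mt-Co1, mt-Co2 and mt-Co3. mt-Co1 (chrM:5328-6872), which holds the site where oxygen is reduced, was at 9285, 10754, 8759.9 and 9261 TPM in mutants 1 to 4, against 8555, 8061, 6898 and 7756 TPM in WT 1 to 4. mt-Co2 (chrM:7013-7696), which accepts electrons from cytochrome c, was at 9996, 11156, 9744 and 10697 TPM in mutants 1 to 4, against 8867, 8644, 7575 and 8130.0 TPM in WT 1 to 4. In both genes every mutant lay above every WT embryo, by log2 fold changes of 0.28 ± 0.09 (SE; limma adjusted p = 0.300) for mt-Co1 and 0.32 ± 0.08 (SE; limma adjusted p = 0.281) for mt-Co2. mt-Co3 (chrM:8607-9390), the third core subunit, was at 8130.0, 8029, 8442 and 8336 TPM in mutants 1 to 4, against 7779, 7431, 6607 and 7185 TPM in WT 1 to 4. The groups of mt-Co3 were also separate, with the smallest fold change of the 12 mRNAs, 0.19 ± 0.07 (SE; limma adjusted p = 0.324). Complex V is the ATP synthase, whose mt-Atp6 product forms the proton channel and whose mt-Atp8 product is a small subunit beside it. mt-Atp6 (chrM:7927-8607) was at 8135, 8290.4, 7678 and 8030.2 TPM in mutants 1 to 4, against 6968, 7362, 6617 and 6876 TPM in WT 1 to 4. mt-Atp8 (chrM:7766-7969) was at 5255, 5439, 4747 and 4656 TPM in mutants 1 to 4, against 4213, 4201, 3864 and 4154 TPM in WT 1 to 4. Neither gene's groups overlapped, and the log2 fold changes were 0.21 ± 0.06 (SE; limma adjusted p = 0.291) for mt-Atp6 and 0.29 ± 0.07 (SE; limma adjusted p = 0.281) for mt-Atp8. Summed by complex, mutants stood at 1.25 times the WT level for complex III, 1.20 times for complex IV and 1.18 times for complex V.

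Nuclear copies of mitochondrial genes bear on how these values were counted, since the counting program is not given in the sources used here. In the GENCODE M21 transcripts, 7 mRNA genes had a pseudogene copy at least 99% identical, all 7 copies on chromosome 1. For mt-Co2 the copy Gm28661 matched 681 of 684 bases at 100% identity, for mt-Atp6 Gm10925 matched 678 of 681, for mt-Co3 Gm28437 matched 783 of 784, for mt-Nd4l Gm10222 matched 294 of 297 and for mt-Nd4 Gm28439 matched 876 of 1378, each at 100% identity. For mt-Nd3, Gm28438 matched 345 of 348 bases at 99.7%, and for mt-Co1, Gm29216 matched 483 of 1545 at 99.8%. Reads from such stretches cannot be placed with certainty, so the levels of these genes are uncertain to that extent. The copies themselves had no values under their symbols and could not be analysed. Among these annotated transcripts, the mRNA genes mt-Nd1 and mt-Atp8 had no nuclear match of at least 50 bases at 90% identity. Their log2 fold changes were 0.32 and 0.29. Copies outside annotated transcripts were not sought, and the last 43 bases of mt-Atp8 are shared with mt-Atp6, which has a copy. These genes were therefore not shown to be free of nuclear copies.

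Of the 2 rRNAs, mt-Rnr1 (chrM:70-1024), the 12S rRNA of the small mitochondrial ribosomal subunit, was higher in every mutant than in any WT embryo. It was at 429, 451, 401 and 426 TPM in mutants 1 to 4, against 358, 339, 322 and 294 TPM in WT 1 to 4, with a log2 fold change of 0.38 ± 0.07 (SE; limma adjusted p = 0.203). mt-Rnr2 (chrM:1094-2675), the 16S rRNA of the large subunit, was at 262, 302, 198 and 306 TPM in mutants 1 to 4, against 278, 231, 179 and 162 TPM in WT 1 to 4. Its groups overlapped, with WT 1 above mutants 1 and 3, and the log2 fold change came to 0.34 ± 0.19 (SE; limma adjusted p = 0.420). That fold change was 0.22 without WT 4, and 0.48 without mutant 3 or without WT 1. The rRNAs together were at 690.3, 753, 599 and 732 TPM in mutants 1 to 4, against 635, 570.3, 501 and 456 TPM in WT 1 to 4, or 1.02% to 1.14% of mitochondrial TPM in mutants and 0.907% to 1.17% in WT. Each rRNA lay below each of the 12 mRNAs of heavy-strand transcription in mean level, although rRNA is the main product of mitochondrial transcription in cells. Per the labels the libraries were made with a TruSeq RNA v2 kit, which captures poly(A) RNA, so rRNA levels here are not total rRNA.

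The tRNAs were next to absent from these libraries. Of the 22 tRNA genes, 20 were at 0 in all 8 embryos and none reached the level for testing. The 2 remaining genes held 1 read each, both in WT 1. mt-Tl1, for leucine (chrM:2676-2750, 75 bases), was at 0.710 TPM in that library, and mt-Tw, for tryptophan (chrM:4950-5016, 67 bases), at 0.795 TPM. Both are shown because they are the only tRNA genes with a value above 0.
mt-Tl1: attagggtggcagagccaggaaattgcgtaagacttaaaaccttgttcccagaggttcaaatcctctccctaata
mt-Tw: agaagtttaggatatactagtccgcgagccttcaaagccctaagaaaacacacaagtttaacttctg
A count of 0 allows up to 3 reads per gene and library, which for a gene of 69 bases is 2.18 to 2.39 TPM in mutants and 2.28 to 2.34 TPM in WT. These limits, and the intervals given for mt-Nd6, cover counting error only. Differences in tRNA level between the genotypes were therefore not detectable at this depth, and tRNAs are short and carry no poly(A) tail, so the kit is not made to recover them.

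mt-Nd6, a membrane-arm subunit of complex I and the one mRNA from light-strand transcription, did not follow the other 12. It was at 27.9, 32.7, 4.06 and 10.8 TPM in mutants 1 to 4, against 32.4, 36.2, 32.5 and 35.8 TPM in WT 1 to 4. Mutants 3 and 4 were far below the 6 other embryos, which lay between 27.9 and 36.2 TPM, and mutant 2 lay above WT 1 and WT 3. These values rested on 271, 309, 42 and 107 reads in mutants and 316, 349, 318 and 355 in WT. By exact Poisson 95% intervals, the level was 2.92 to 5.48 TPM in mutant 3 and 8.87 to 13.1 TPM in mutant 4, while the lowest of the other intervals began at 24.7 TPM. The log2 fold change came to -1.18 ± 0.51 (SE; limma adjusted p = 0.358), with an unadjusted p of 0.0449 and a two-sided exact permutation p of 0.0857, and was -0.64 without mutant 3, -1.05 without mutant 4 and -0.17 with mutants 1 and 2 only. An unadjusted p under 0.05 in the direction lower in mutants, which mt-Nd6 had, was reached by 1088 of 13596 genes (8%). As a percentage of the mean of the 12 other mRNAs, mt-Nd6 was at 0.552, 0.597, 0.0833 and 0.205% in mutants 1 to 4, against 0.723, 0.826, 0.839 and 0.864% in WT 1 to 4. On that scale mutants 1 and 2 also lay below every WT embryo. The summed level of the 12 was itself higher in every mutant than in any WT embryo, which by itself lowers this percentage. The difference of means was -0.45 percentage points, and -0.24 with mutants 1 and 2 only. The kit does not mark strand and the counting setting is not given in the sources used here, so reads of mt-Nd6 cannot be told from antisense reads of heavy-strand precursors.

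A set of nuclear RNAs was low in the same embryos as mt-Nd6. The 16 listed small nucleolar RNA host genes and nuclear RNAs found in the table, such as Gas5 and Malat1, summed to 784, 939.6, 426 and 409 TPM in mutants 1 to 4, against 1004, 824, 877 and 874 TPM in WT 1 to 4. Mutants 3 and 4 were again the lowest. All 14 members tested were lower on average in mutants, where 37.7% of all genes were higher. Their median log2 fold change was -0.66, and 5 of them had an unadjusted p under 0.05, against 8% of all genes in that direction. With mutants 1 and 2 only, 8 were lower and 6 higher on average, 4 had an unadjusted p under 0.05 in the direction lower, and the median was -0.01. The part of these RNAs in the level of mt-Nd6 was not tested. Among named genes, those most like mt-Nd6 across the 8 embryos on the log2(TPM + 1) scale were Ofd1, Duxbl1, Unk, Recql5 and Sfswap, with Pearson's r of 0.98 to 0.99. Spearman's rho for them was 0.55 to 0.90, and without mutants 3 and 4, over 6 embryos, r was 0.21 to 0.75, so that their likeness rested on those 2 embryos. Ofd1, which encodes a protein of centrioles and cilia, was at 14.5, 14.2, 8.92 and 11.1 TPM in mutants 1 to 4, against 14.5, 15.9, 14.9 and 14.8 TPM in WT 1 to 4. Sfswap, a splicing regulator, was at 35.4, 38.9, 23.6 and 26.7 TPM in mutants 1 to 4, against 37.3, 38.4, 37.1 and 37.4 TPM in WT 1 to 4.

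**Figure D3:**
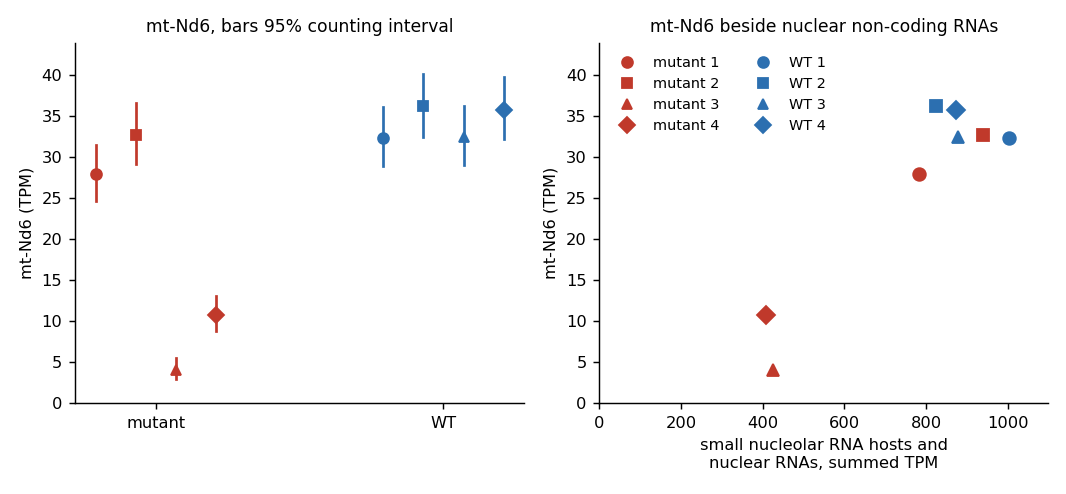
Left, mt-Nd6 in TPM for each embryo with exact Poisson 95% intervals from its reads, mutants left of WT. Right, mt-Nd6 against the summed TPM of 16 small nucleolar RNA host genes and nuclear RNAs; mutants 3 and 4 sit at 4.06 and 10.8 TPM of mt-Nd6 and at 426 and 409 TPM on the horizontal axis, below all other embryos on both axes.

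Ratios between mitochondrial transcripts show how evenly the 12 mRNAs differed within each embryo. The ratio of mt-Nd5 to mt-Nd4, neighbours in the same direction, was 0.436, 0.466, 0.294 and 0.463 in mutants 1 to 4, against 0.493, 0.534, 0.481 and 0.503 in WT 1 to 4. Every mutant lay below every WT embryo, and mutant 3 was the lowest by far; the ratio averaged 0.415 ± 0.0818 in mutants and 0.503 ± 0.0227 in WT (SD, n = 4 each). The ratio was singled out after its values were seen and was not tested. mt-Nd4l over mt-Nd4, which share an mRNA, was 0.719, 0.801, 0.817 and 0.814 in mutants 1 to 4, against 0.698, 0.771, 0.799 and 0.808 in WT 1 to 4, and the groups overlapped. mt-Atp8 over mt-Atp6, the other shared mRNA, was 0.646, 0.656, 0.618 and 0.580 in mutants 1 to 4, against 0.605, 0.571, 0.584 and 0.604 in WT 1 to 4, again with overlap. Neither ratio was near equality in any embryo, with a range of 0.57 to 0.82 over both pairs, and reads in the 43 shared bases of the second pair belong to both genes. Reads were divided by whole gene length. mt-Atp8 (204 bases) and mt-Nd4l (297 bases) are much shorter than mt-Atp6 (681 bases) and mt-Nd4 (1378 bases). Nuclear copies also match mt-Nd4l, mt-Nd4 and mt-Atp6. The part of length and copies was not tested, so unequal levels within 1 mRNA were not shown. mt-Rnr2 over mt-Rnr1 was 0.610, 0.671, 0.494 and 0.720 in mutants 1 to 4, against 0.777, 0.681, 0.555 and 0.552 in WT 1 to 4, with wide overlap.

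**Figure D4:**
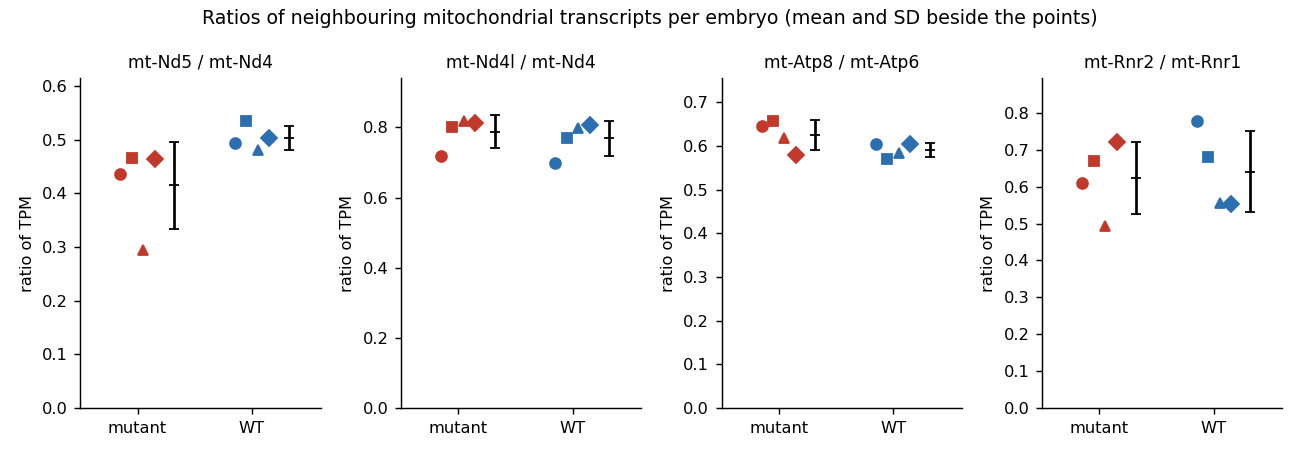
Ratios of TPM between pairs of mitochondrial transcripts in each embryo, mutants left of WT, with mean and SD beside the points (n = 4 each) and axes from 0. The mt-Nd5 to mt-Nd4 ratio is 0.29 to 0.47 in mutants and 0.48 to 0.53 in WT, and the 3 other ratios overlap between the genotypes.

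Of the nuclear-encoded partners of these subunits none passed the test. The 73 nuclear-encoded subunits of complexes I to V in the table summed to 19249, 17354, 19119.9 and 17826 TPM in mutants 1 to 4, against 20089, 18824, 18853 and 19081 TPM in WT 1 to 4, with overlap. All 73 were tested, 14 were higher and 59 lower on average in mutants, where 37.7% of all genes were higher, and the median log2 fold change was -0.06, near the -0.04 of all genes. With mutants 1 and 2 only, 6 were higher and 67 lower, where 58.5% of all genes were higher, and the median was -0.07 against 0.03 for all genes. None was called at an adjusted p under 0.05, 0 had an unadjusted p under 0.05 in the direction higher and 10 in the direction lower, where 5.55% and 8% of all genes did. For 6 of them every mutant lay below every WT embryo, as for 3.82% of all genes in that direction. Cyc1, the cytochrome c1 of complex III, was at 297, 276, 284 and 278 TPM in mutants 1 to 4, against 337, 308, 318 and 307 TPM in WT 1 to 4 with a log2 fold change of -0.16 ± 0.05 (SE; limma adjusted p = 0.283). Ndufs7, an iron-sulfur subunit of complex I, was at 85.3, 81.9, 84.2 and 87.7 TPM in mutants 1 to 4, against 98.3, 98.5, 91.7 and 91.4 TPM in WT 1 to 4. Neither gene's groups overlapped. Sdhb, the iron-sulfur subunit of complex II, averaged 150.4 ± 3.94 TPM in mutants and 164 ± 6.29 TPM in WT (SD, n = 4 each). The difference between mitochondrial and nuclear-encoded subunits was not tested as such, since a score over chosen members carries no p here.

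**Figure D5:**
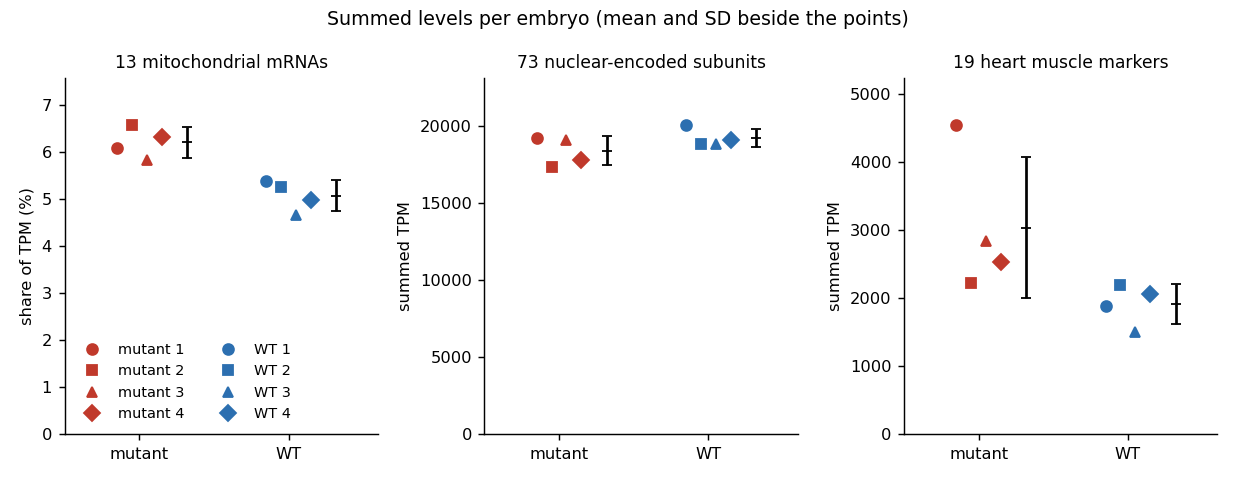
Per embryo, the share of TPM from the 13 mitochondrial mRNAs, the summed TPM of 73 nuclear-encoded respiratory chain subunits and the summed TPM of 19 heart muscle markers, mutants left of WT, mean and SD (n = 4) beside the points, axes from 0. The mitochondrial share is 5.84% to 6.58% in mutants and 4.65% to 5.39% in WT, the nuclear-encoded sums overlap, and mutant 1 has the highest heart marker sum, 4544 TPM.

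Genes that copy and transcribe mitochondrial DNA, 19 in number, held none that passed the test. Of them 2 were higher (37.7% of all genes) and 17 lower on average in mutants, and the median log2 fold change was -0.13. At an unadjusted p under 0.05, 0 were higher (5.55% of all genes) and 3 lower (8% of all genes). With mutants 1 and 2 only, 6 were higher and 13 lower and the median was -0.03. The mitochondrial RNA polymerase Polrmt was at 26.4, 28.1, 23.6 and 23.5 TPM in mutants 1 to 4, against 28.2, 27.9, 26.4 and 26.7 TPM in WT 1 to 4. Tfam, which packages mitochondrial DNA and starts its transcription, ranged from 65.4 to 72.1 TPM in mutants and from 67.1 to 71.3 TPM in WT. Mterf2, a member of the mitochondrial termination factor family, was at 16.6, 17.7, 12.4 and 11.3 TPM in mutants 1 to 4, against 18.8, 21.1, 17.8 and 20.1 TPM in WT 1 to 4, the smallest p of this list, with a log2 fold change of -0.41 ± 0.14 (SE; limma adjusted p = 0.304), or -0.17 with mutants 1 and 2 only. Ssbp1, which coats single-stranded mitochondrial DNA, averaged 25.2 ± 2.32 TPM in mutants and 28.4 ± 1.14 TPM in WT, Tefm, an elongation factor of mitochondrial transcription, 31.2 ± 3.92 TPM in mutants and 36.2 ± 2.83 TPM in WT, and Mterf1a, a termination factor, 3.86 ± 0.824 TPM in mutants and 4.80 ± 0.132 TPM in WT (SD, n = 4 each). Of 23 genes of mitochondrial RNA processing and decay, 9 were higher (37.7% of all genes) and 14 lower on average, none was called and the median was -0.03. At an unadjusted p under 0.05, 1 was higher (5.55% of all genes) and 5 lower (8% of all genes), and with mutants 1 and 2 only 0 of either. Lrpprc, which binds and stabilises mitochondrial mRNAs, was at 37.4, 43.1, 44.1 and 45.3 TPM in mutants 1 to 4, against 36.0, 37.5, 39.5 and 37.7 TPM in WT 1 to 4, a log2 fold change of 0.16 ± 0.07 (SE; limma adjusted p = 0.351), or 0.09 with mutants 1 and 2 only. Pnpt1, the polynucleotide phosphorylase that degrades mitochondrial RNA, was at 52.0, 52.4, 35.2 and 34.3 TPM in mutants 1 to 4, against 57.4, 54.8, 54.7 and 55.8 TPM in WT 1 to 4. It was lowest in mutants 3 and 4, the embryos with the least mt-Nd6, and the log2 fold change came to -0.38 ± 0.14 (SE; limma adjusted p = 0.321), or -0.09 with mutants 1 and 2 only. Hsd17b10, a subunit of mitochondrial RNase P, averaged 219 ± 19.1 TPM in mutants and 247 ± 17.9 TPM in WT, and Angel2 33.1 ± 3.12 TPM in mutants and 37.5 ± 0.924 TPM in WT (SD, n = 4 each). Of 26 genes of mitochondrial import, matrix and shape, which are often used to gauge the amount of the organelle, 13 were higher (37.7% of all genes) and 13 lower on average, with none called and a median of 0.0030. Among them Cs, the citrate synthase, was at 196, 205, 212 and 212 TPM in mutants 1 to 4, against 195, 218, 199 and 209 TPM in WT 1 to 4, with wide overlap. Ogdh, a subunit of the oxoglutarate dehydrogenase complex, had the smallest p of these 26, at 118 ± 3.48 TPM in mutants and 107 ± 6.23 TPM in WT, while Phb averaged 300.4 ± 24.7 TPM in mutants and 343 ± 37.2 TPM in WT, Immt 55.1 ± 2.71 TPM in mutants and 59.4 ± 0.997 TPM in WT and Timm44 55.8 ± 6.39 TPM in mutants and 61.5 ± 2.69 TPM in WT (SD, n = 4 each). Of 10 regulators of mitochondrial biogenesis 5 were higher (37.7% of all genes) and 5 lower on average, none was called, the median was 0.0078, and Esrrg, a nuclear receptor of oxidative tissues, had the smallest p, at 4.33, 2.62, 2.74 and 2.89 TPM in mutants 1 to 4, against 1.68, 2.11, 1.68 and 2.49 TPM in WT 1 to 4. Esrra, a related receptor, had a log2 fold change of -0.21 ± 0.12 (SE; limma adjusted p = 0.425). Nrf1, an activator of nuclear genes for mitochondrial proteins, averaged 22.7 ± 1.19 TPM in mutants and 24.6 ± 0.904 TPM in WT, and the coactivator Ppargc1a 1.82 ± 0.603 TPM in mutants and 1.28 ± 0.409 TPM in WT (SD, n = 4 each).

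Markers of other tissues also varied among these embryos, and no marker passed the test. The 19 heart muscle markers summed to 4544, 2219, 2832 and 2527 TPM in mutants 1 to 4, against 1877, 2186, 1505 and 2057 TPM in WT 1 to 4, so that every mutant lay above every WT embryo; 16 were higher (37.7% of all genes) and 3 lower on average, with 11 at an unadjusted p under 0.05 in the direction higher (5.55% of all genes), none called and a median log2 fold change of 0.59. A heart marker mostly under 1 TPM in WT was tested through the mutants, so these counts are in part set by the filter described below. With mutants 1 and 2 only, 18 were tested, 17 were higher (58.5% of all genes) and the median was 0.69. The 20 yolk sac endoderm markers summed to 1549, 958, 277 and 173 TPM in mutants 1 to 4, against 34.7, 61.7, 307 and 37.2 TPM in WT 1 to 4, with WT 3 above mutants 3 and 4. Of these, 19 were tested, and all 19 were higher on average (37.7% of all genes). All had an unadjusted p under 0.05 in that direction (5.55% of all genes), with a median log2 fold change of 2.31 and none called. A gene was tested when 4 embryos reached 1 TPM, so some could enter through the mutants alone, where they were high. The share higher among those tested is therefore partly set by the filter. With mutants 1 and 2 only, 9 of the yolk sac endoderm markers were tested. All 9 were higher on average (58.5% of all genes in that setting). All 9 had a limma unadjusted p under 0.05 in that direction (1296 of 13463 genes). The median was 3.81 and none was called. Mutants 1 and 2 had the highest sums of these markers among the 8 embryos. Trophoblast and decidua markers (12 genes) had a sum per embryo of 31.3 to 347 TPM in mutants and 18.9 to 37.8 TPM in WT. The same limit of the filter holds for them, with 7 tested, and 5 with mutants 1 and 2 only. All 7 were higher on average (37.7% of all genes) and 3 had an unadjusted p under 0.05 (5.55% of all genes in that direction). None was called and the median was 0.72. With mutants 1 and 2 only, all 5 tested were higher on average (58.5% of all genes) and the median was 1.12. Of these 5, 2 had a limma unadjusted p under 0.05 in that direction (1296 of 13463 genes). Primitive red cell markers (12 genes) had a sum per embryo of 24682 to 63412 TPM in mutants and 17406 to 59593 TPM in WT. Of them 11 were higher (37.7% of all genes) and 1 lower on average. In either direction 0 had an unadjusted p under 0.05 (13.5% of all genes), with none called and a median of 0.08. Neuron markers (15 genes) had a sum per embryo of 131 to 277 TPM in mutants and 227 to 491 TPM in WT. All 15 were lower on average, where 37.7% of all genes were higher. An unadjusted p under 0.05 was reached by 8 (8% of all genes in that direction), none was called and the median was -0.76. With mutants 1 and 2 only, 1 of the 15 had an unadjusted p under 0.05 and the median was -0.52. The part of these tissues in the mitochondrial levels was not tested.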

How the data were processed

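RNA of 8 single mouse embryos (4 SmoK399A/K399A, 4 Smo+/+) was sequenced; per the labels libraries were made with a TruSeq RNA v2 kit and sequenced on a NovaSeq instrument. The authors deposited 1 table of TPM per gene symbol, on GRCm38 (mm10) per the submitters' processing notes; for the aligner, counting program, annotation release and strand setting, the sources used here give nothing. All 8 columns matched a sample by name and 0 columns were left over. Each library summed to 1000000 TPM. The members and gene lists were chosen with earlier results of these data known.

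A gene was kept when 4 or more embryos reached 1 TPM (13596 genes). On log2(TPM + 1), limma 3.58.1 (R 4.3.3) fitted genotype alone, mutant minus WT, with a mean-variance trend; p-values are two-sided and Benjamini-Hochberg adjusted over all kept genes (threshold 0.05). Fold changes are on that scale and understate those of low genes. Replicates are single embryos numbered within genotype. Named were all mt- genes, from each list of nuclear genes for mitochondria the 4 with the smallest p (1 of them is not reported here, and marker lists are given by counts and sums), the 5 named genes most like mt-Nd6, and, chosen after their values were seen, Polrmt, Tfam, Cs, Gas5, Malat1, Sox2 and Meox1. Whole reads were recovered as TPM times the GENCODE M21 merged exon length over a step per library, and 22464 of 22992 genes (97.7%) were whole within 0.02 reads in all libraries; on simulated reads 100% of genes were recovered. On simulated data of 13596 genes for mutant against WT, limma called 62 of 100 genes changed 1.5-fold and 84 of 100 changed 2-fold, with 6 unchanged genes called. Noise was drawn for each gene on its own, and no change below 1.5-fold was planted. The mRNAs of heavy-strand transcription differed by less, at most 1.44-fold (mt-Nd4l), so these counts do not give the power for them. Nuclear copies were sought with blastn 2.17.0 in GENCODE M21 transcripts. Of 11 genes listed as nuclear copies 10 had no values under their symbols and could not be analysed. The other, Gm28230 (6.99, 21.3, 5.90 and 7.65 TPM in mutants 1 to 4, against 26.2, 19.0, 18.5 and 22.7 TPM in WT 1 to 4), had no such match. Figures were drawn with matplotlib 3.10.9.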

Additional observations from a re-analysis of the deposited data

Results flagged for a closer look

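Within each genotype, 48 groups of 4 values were searched for a value far from the other 3, at a gap of more than 0.829 of the range, and 3 were found; chance gives about 1 in 20. The ratio of mt-Nd5 to mt-Nd4 was 0.294 in mutant 3, against 0.436 to 0.466 in the other mutants; mutant 3 also had the lowest mt-Nd5 and mt-Nd6 of the 8 embryos. The ratio of mt-Nd4l to mt-Nd4 was 0.719 in mutant 1, against 0.801 to 0.817 in the other mutants. mt-Atp8 was at 3864 TPM in WT 3, against 4154 to 4213 TPM in the other WT embryos, and WT 3 had the lowest share of mitochondrial mRNA of all 8 embryos.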

How the results depend on the processing

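Other pseudocounts (0.5 and 0.1), filters, scalings (median ratio, and totals without mitochondrial genes), array weights, no trend, leaving out each embryo, and the replicate block kept the direction of all 15 tested genes, and none passed the threshold (smallest adjusted p 0.101). Of the 12 mRNAs, 10 or 11 stayed at an unadjusted p under 0.05 and higher. No setting moved the median of all genes by more than 0.071. The median log2 fold change of the 12 mRNAs, 0.31, was 0.26 to 0.37 with 1 embryo left out, the mitochondrial share difference 0.996 to 1.26 percentage points and the mt-Nd6 percentage difference -0.53 to -0.36. The count of genes called over all genes was 0 to 1 with 1 embryo left out, the 1 without mutant 2. It was 3 with mutants 1 and 2 only against all WT, a setting chosen after seeing the data in which the mt-Nd6 percentage difference was -0.24; the cause was not tested. Genes at an unadjusted p under 0.05 numbered 1842, and 3511 with array weights, 3057 without mutant 2, 1146 without WT 1 and 1203 without WT 2. Same-numbered embryos of the 2 genotypes, after centring, correlated at -0.062, 0.040, -0.19 and -0.25 over all genes tested. These values cannot tell whether same-numbered embryos share a litter, which is not labelled. With the replicate block 0 genes were called, the smallest limma adjusted p of a mitochondrial gene was 0.277, and the median of the 12 mRNAs was 0.31. The block took the SE of mt-Nd5 from 0.18 to 0.10 and that of mt-Co3 from 0.07 to 0.09.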
